A study of Mus musculus with 282 samples.

Results

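Aminoacyl-tRNA synthetases are the enzymes that join each amino acid to its transfer RNA. They were followed here as 37 genes among the 15907 gene symbols in each of the deposited tables. Members were taken by name: the one-letter amino acid code followed by "ars", with or without the endings 1, 2, 3 or l2, together with Farsa, Farsb and Fars2, and averaging 1 RPM or more, where RPM is the reads-per-million scale. All 37 matching symbols reached that minimum in both tables. The rule used no difference between groups. By textbook location, 18 members charge tRNAs in the cytosol, 17 work in mitochondria, and 2 (Gars and Kars) make enzymes for both compartments. Cytosolic glutamyl-prolyl-tRNA synthetase, Eprs, is not reached by the naming rule and was counted among the charging partners instead.

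The data are 3′ mRNA-seq profiles of the liver lateral lobe from male C57BL/6J mice housed in individual cages under 12 h light and 12 h dark. Times are zeitgeber times (ZT, hours after lights on). In all, 13 arms were sampled at ZT 2, 6, 10, 14, 18 and 22 with 3 replicates a time, and 3 tunicamycin arms at ZT 4, 10, 16 and 22 with 4 replicates a time, 282 libraries in all. Uninjected wild-type mice were fed at night (night-restricted), arrhythmically, or ad libitum. Mice with a whole-body Bmal1 knockout (BMKO) were night-fed, as were liver Tsc1 knockouts, liver Raptor knockouts and their Albumin-Cre controls, and a group of each of wild-type and BMKO mice received vehicle or rapamycin. Arrhythmically fed wild-type mice received AZD8055 at dawn (AZDday) or at dusk (AZDnight). Tunicamycin was given to night-fed mice, to arrhythmically fed mice, and to arrhythmically fed mice that also had AZD8055 at dusk. Doses, ages and the hours from tunicamycin to harvest are not stated in the labels. The study names the replicates biological.

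Libraries held 706440 to 14321171 reads in the 13-arm table and 4853343 to 10057983 in the tunicamycin table, and the 3 shallowest were BMKO ZT 6 replicate 1, BMKO ZT 22 replicate 3 and wild-type rapamycin ZT 22 replicate 1. Tsc1 ran from 3.72 to 11.2 RPM in the liver Tsc1 knockout against 9.33 to 22.6 in Albumin-Cre, and Rptor from 2.68 to 9.5 in the Raptor knockout against 6.73 to 11.6, so in both cases the ranges met. Arntl, the symbol for Bmal1, ran from 6.08 to 17 RPM in uninjected BMKO, and such 3′ reads do not test a deletion elsewhere in the gene. All 7 hepatocyte markers listed had a median of at least 1 RPM in each of the 16 arms. Some libraries stood apart. By clock genes, ad libitum ZT 10 replicate 3 and ZT 14 replicate 3 each lay nearest the other's time, and AZD8055 dusk ZT 2 replicates 2 and 3 lay nearest other times. Replicate 1 of uninjected BMKO ZT 6 and replicate 1 of vehicle BMKO at ZT 14 and ZT 22 lay at least 2 times the median distance of their table from the other libraries of their group, as did 4 libraries of other arms; counts that moved by over 1.5 times without such libraries are in the closing section. Bulk liver RNA does not tell fewer cells of a type apart from less RNA per cell.

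As background, cytosolic synthetases supply charged tRNAs to the ribosomes that translate nuclear messages, and a nuclear-encoded mitochondrial set supplies the separate ribosomes that translate mitochondrial DNA. When charged tRNAs run short or proteins misfold in the endoplasmic reticulum, kinases phosphorylate the initiation factor eIF2, and the transcription factor ATF4 is made. ATF4 is known for raising amino acid transporters, amino acid synthesis enzymes and many cytosolic synthetases. The kinase complex mTORC1 senses amino acids and also raises ATF4 protein. Rapamycin inhibits mTORC1, AZD8055 inhibits the mTOR kinase itself, loss of Tsc1 leaves mTORC1 active, and Raptor is an mTORC1 subunit. Tunicamycin blocks N-linked glycosylation and so causes misfolding in the endoplasmic reticulum.

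The promoters of 4 members are shown because their genes carry the differences described below: Tars (threonyl-tRNA synthetase), which had the highest fitted amplitudes of the members, Aars (alanyl) and Gars (glycyl), which rose in several comparisons, and Sars (seryl), which fell under rapamycin in wild type and rose in BMKO. Each run is the 250 bases before the RefSeq gene start in GRCm38.p6, read 5′ to 3′ on the gene's strand, at chr15:11399659-11399908 (minus) for Tars, chr8:111033592-111033841 (plus) for Aars, chr6:55037751-55038000 (plus) for Gars and chr3:108445260-108445509 (minus) for Sars. Capitals mark TGATGNAA, the core of the element that ATF4 and its partners are known to bind, where it lies on the opposite strand, and CACGTG, the E-box known to be bound by BMAL1 and CLOCK.
Tars: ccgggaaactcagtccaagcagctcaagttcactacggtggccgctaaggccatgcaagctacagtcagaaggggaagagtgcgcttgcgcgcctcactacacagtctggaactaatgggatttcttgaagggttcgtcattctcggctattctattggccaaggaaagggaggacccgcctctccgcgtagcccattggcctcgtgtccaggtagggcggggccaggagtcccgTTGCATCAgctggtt
Aars: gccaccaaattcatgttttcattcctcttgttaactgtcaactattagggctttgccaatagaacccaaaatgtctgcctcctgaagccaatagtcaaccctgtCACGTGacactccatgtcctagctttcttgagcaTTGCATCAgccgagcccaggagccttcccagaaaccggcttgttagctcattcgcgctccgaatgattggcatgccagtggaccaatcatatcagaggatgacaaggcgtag
Gars: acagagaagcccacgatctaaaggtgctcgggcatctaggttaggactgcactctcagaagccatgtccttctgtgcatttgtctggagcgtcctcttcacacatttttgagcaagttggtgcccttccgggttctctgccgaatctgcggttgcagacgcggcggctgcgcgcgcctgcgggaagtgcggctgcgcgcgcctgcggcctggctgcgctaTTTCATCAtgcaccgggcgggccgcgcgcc
Sars: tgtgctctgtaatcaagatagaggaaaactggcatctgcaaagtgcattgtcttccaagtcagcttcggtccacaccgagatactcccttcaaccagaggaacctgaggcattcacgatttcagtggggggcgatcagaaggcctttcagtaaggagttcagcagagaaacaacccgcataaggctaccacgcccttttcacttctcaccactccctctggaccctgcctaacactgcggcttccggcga

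In windows from 250 bases before to 50 after the start, RefSeq held 28 windows for 27 of the 37 members. TGATGNAA, searched on both strands, lay in 4 of 11 cytosolic windows (Aars, Iars, Tars and Yars), in that of Gars, and in 0 of 15 mitochondrial windows, against 3.97% of 32851 mouse windows of the same length. In Tars it began 15 bases before the start and in Gars 30. Aars held it 112 bases before the start and again 9 after. CACGTG, a palindrome and so the same on both strands, lay in 4 of 11 cytosolic windows (Aars, Farsb, Iars and Tars) and in that of Ears2 among the 15 mitochondrial ones, against 7.15% of all windows. The Sars window held neither. These are matches of letters only, and no binding was measured.

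The mean levels of the cytosolic and the mitochondrial class stayed apart in every arm, and the gap between them had its highest values in the tunicamycin arms. Levels of single members overlapped between the classes. Over the 13 arms without tunicamycin, mitochondrial Iars2 averaged 38.4 RPM and cytosolic Vars 6.16. The mean log2(RPM + 0.5) over the 18 cytosolic members was 4.56 ± 0.08 (SD of libraries within times, n = 18 libraries) in uninjected night-fed wild-type liver and lay between 4.56 and 4.89 in the 13 arms without tunicamycin. It was 5.33, 5.38 and 5.41 in the 3 tunicamycin arms. For the 17 mitochondrial members the same mean was 2.86 ± 0.09 in night-fed wild type, 2.85 to 3.26 over the 13 arms, and 2.93, 2.98 and 2.96 under tunicamycin. How the submitters normalized the tables is not stated, and each table was rescaled here to RPM on its own. Levels set across them therefore carry no test. Within a library, the cytosolic mean minus the mitochondrial mean ran from 1.62 to 1.86 over the arm means without tunicamycin and from 2.40 to 2.45 with it.

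**Figure D1:**
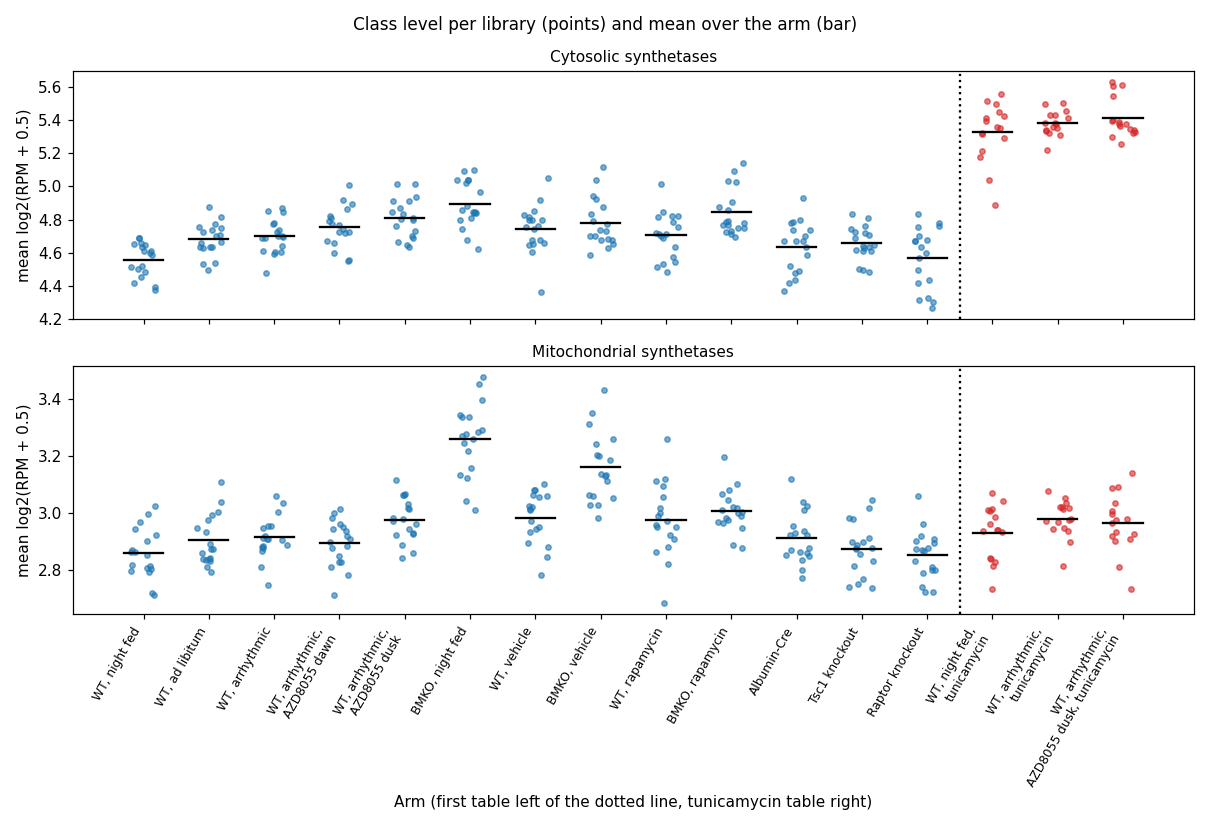
Mean log2(RPM + 0.5) over the 18 cytosolic members and over the 17 mitochondrial members, 1 point per library, in each of the 16 arms; bars are arm means. The cytosolic means of the 3 tunicamycin arms (5.33 to 5.41) sit above those of the other arms (4.56 to 4.89), while the mitochondrial means (2.93 to 2.98) fall inside the range of the others (2.85 to 3.26).

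Tars was the member most often rhythmic. Threonyl-tRNA synthetase mRNA followed a 24 h wave in 13 of the 16 arms, whereas 22 of the 37 members passed the rhythm test in at least 1 arm, 13 of them in 2 or more. Of 64 gene-and-arm calls, 45 were cytosolic, 19 mitochondrial and 0 fell on Gars or Kars. Within single arms 0 to 9 of the 37 members passed, where 0.274% to 24.4% of all genes did. Cars (cysteinyl) and Ears2 (mitochondrial glutamyl) came next in number of arms, with 6 and 7, then Wars (tryptophanyl) with 5 and Cars2 (mitochondrial cysteinyl) with 4. Of these calls outside Tars, only Yars2 (mitochondrial tyrosyl) in Albumin-Cre and Cars2 under tunicamycin with AZD8055 held in every alternative analysis run. The alternative with arm and replicate number as a random block was not run for rhythms within an arm.

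In uninjected night-fed wild-type liver, Tars measured 273.6, 250.7 and 347.0 RPM in the 3 replicates at ZT 2, then 138.7, 140.6 and 191.6 at ZT 6. At ZT 10 it measured 68.02, 101.7 and 86.18, and at ZT 14 112.7, 102.3 and 127.1. It returned to 247.7, 212.3 and 257.9 at ZT 18 and 255.0, 294.5 and 292.3 at ZT 22. No library of ZT 10 or 14 reached any library of ZT 18, 22 or 2. The fitted amplitude, the distance from mean to peak on the log2 scale, was 0.93 ± 0.07 (SE), a 3.61-fold swing from trough to peak, with its peak at ZT 22.9 (limma, adjusted p = 5.64e-08). In that arm 21.8% of all genes tested passed the rhythm test, and 4 members did: Tars, Wars (0.47), Farsa (0.35, a subunit of cytosolic phenylalanyl-tRNA synthetase) and Fars2 (0.34, the mitochondrial form, named after its value was seen). The Wars and Farsa calls were lost without replicate 1 or without replicate 2, and that of Fars2 without replicate 1, 2 or 3.

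**Figure D2:**
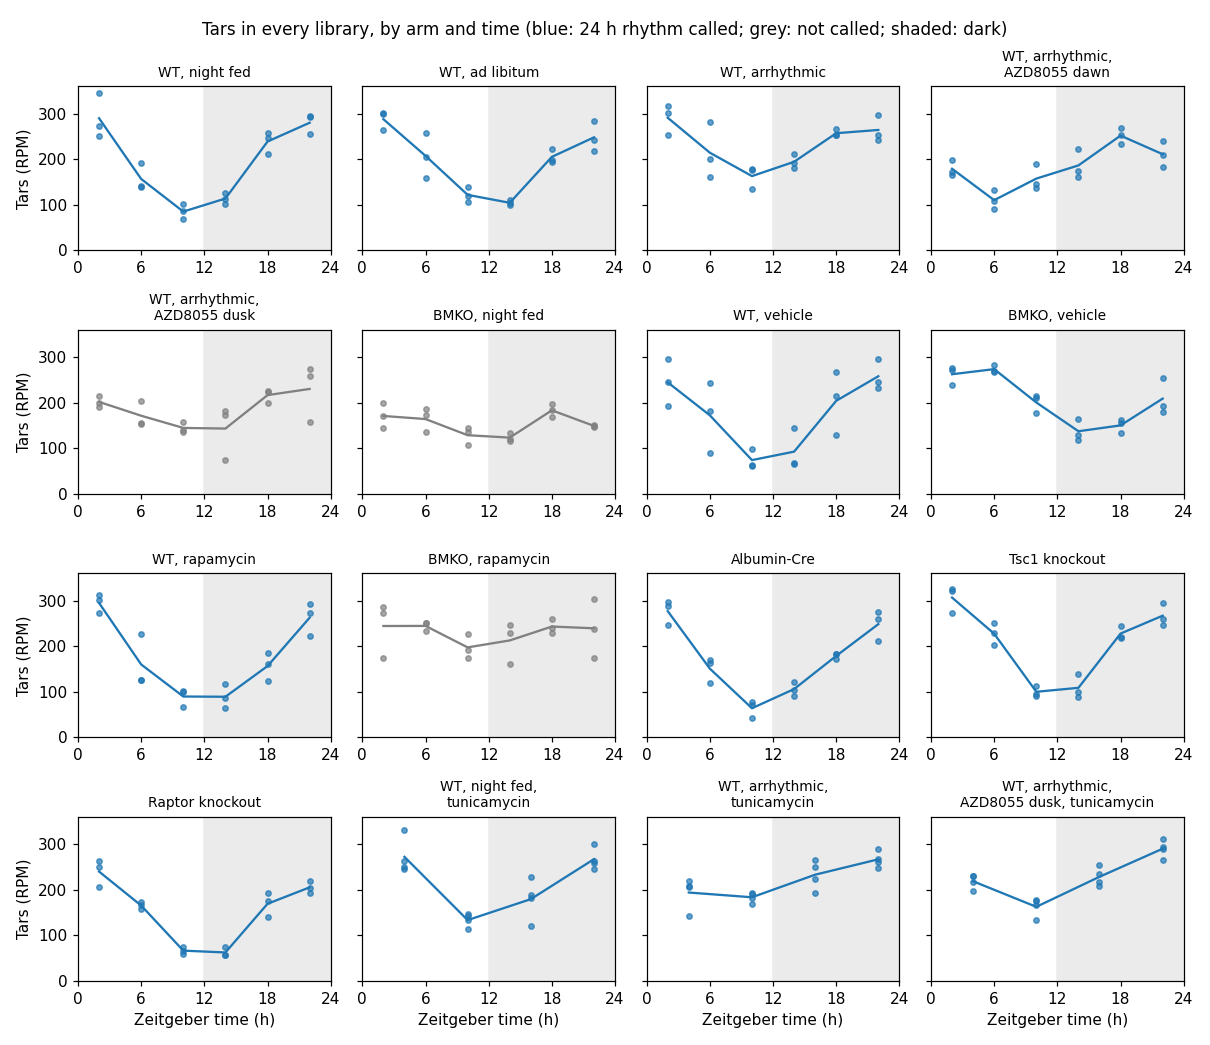
Tars in RPM against zeitgeber time in all 16 arms, 1 point per library, lines through the time means. In night-fed wild type the 3 libraries at ZT 10 lie between 68.02 and 101.7 RPM and the 3 at ZT 22 between 255.0 and 294.5; in uninjected BMKO all 18 libraries lie between 107 and 199.

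Tars was also rhythmic in the other night-fed arms that carry Bmal1. Its amplitude was 0.96 ± 0.15 with vehicle, 0.96 ± 0.11 with rapamycin, 0.99 ± 0.08 in Albumin-Cre, 0.84 ± 0.06 in the liver Tsc1 knockout and 1.03 ± 0.06 in the liver Raptor knockout, with peaks between ZT 23.3 and 0.17. Adjusted p (limma) was 0.000874, 5.47e-05, 5.7e-07, 1.22e-07 and 1.73e-08 in that order. The vehicle call was lost without replicate 2. Background shares of rhythmic genes were 14.9% with vehicle, 5.12% with rapamycin, 23.3% in Albumin-Cre, 24.4% in the Tsc1 knockout and 17.5% in the Raptor knockout. The rhythm difference of Tars between each liver knockout and Albumin-Cre, and between rapamycin and vehicle, did not pass. For those contrasts the background was 0.00815% of genes for Tsc1, 0% for Raptor, 0% for rapamycin in wild type and 0.29% for rapamycin in BMKO, and 0 of 37 members passed in each (limma). At an unadjusted p under 0.05, 6 members differed for Tsc1, 1 for Raptor, 5 for rapamycin in wild type and 4 for rapamycin in BMKO, where the shares of all genes at that threshold were 5.67%, 4.39%, 5.42% and 9.12%, and edgeR called 0 members in each.

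The rhythm of Tars differed between arrhythmic and night feeding. With arrhythmic feeding Tars measured 317.9, 302.6 and 253.9 RPM at ZT 2 and 176.4, 178.0 and 135.6 at ZT 10, where night-fed livers held 68.02 to 101.7. The ZT 10 libraries of the 2 schedules did not overlap. The amplitude under arrhythmic feeding was 0.39 ± 0.07 (adjusted p = 0.00423 by limma, lost without replicate 1 or without replicate 3). The difference from night feeding had an amplitude of 0.54 ± 0.10 (adjusted p = 0.00132, lost without replicate 2), where 4.62% of genes passed. Under ad libitum feeding the amplitude was 0.72 ± 0.06 (adjusted p = 5.34e-07), and the rhythm difference from night feeding did not pass in limma for any of the 37 members, against 0.854% of all genes; 4 members were under an unadjusted p of 0.05, where 11.7% of all genes were, and edgeR called 0. Rhythmic genes made up 7.95% of those tested under arrhythmic feeding and 16.5% under ad libitum feeding, and 2 members passed in each arm, Tars with Hars (histidyl) and Tars with Sars2 (mitochondrial seryl).

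Without Bmal1, Tars passed the rhythm test with vehicle and in neither of the other arms. In uninjected BMKO the lowest library of Tars held 107 RPM, the median 148 and the highest 199, an amplitude of 0.20 ± 0.07 that did not pass (adjusted p = 0.207 by limma). The rhythm difference from wild type had an amplitude of 0.73 ± 0.14 (adjusted p = 0.00137, background 3.09% of genes), a call lost without replicate 2 and without replicate 3. With vehicle the BMKO libraries peaked at ZT 3.79 with an amplitude of 0.52 ± 0.07 (adjusted p = 0.00135, lost without replicate 2 or without replicate 3), measuring 283.3, 268.3 and 271.0 RPM at ZT 6 and 118.0, 129.7 and 165.4 at ZT 14. With rapamycin the amplitude was 0.13 ± 0.09 and did not pass (adjusted p = 0.796 by limma); in that arm 0 members were rhythmic in limma, 0 at an unadjusted p under 0.05 (10.2% of all genes) and 0 in edgeR. Rhythmic genes were 5.61% of all in uninjected BMKO, 5.49% with vehicle and 0.274% with rapamycin. Aars and Yars passed in uninjected BMKO with amplitudes of 0.46 and 0.50 and peaks at ZT 19.8 and 20.1, both lost without replicate 1, 2 or 3.

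After AZD8055 at dawn the rhythm of Tars differed from that without the drug. Given at dawn, it went with 90.0, 133.4 and 107.8 RPM at ZT 6 and 233.2, 269.9 and 253.7 at ZT 18, which did not overlap, where arrhythmic feeding alone held 161.2, 282.9 and 199.9 at ZT 6. The peak fell at ZT 18.9 with an amplitude of 0.49 ± 0.07 (limma, adjusted p = 0.000298), and 20.9% of all genes were rhythmic in that arm against 19.5% with AZD8055 at dusk. The rhythm differed from arrhythmic feeding alone by an amplitude of 0.44 ± 0.12 (adjusted p = 0.0329, lost without replicate 2 or without replicate 3), where 14.7% of genes passed. Given at dusk, it left a Tars amplitude of 0.37 ± 0.11 (adjusted p = 0.0503), and no rhythm difference passed for Tars, against 5.75% of genes. Wars carried the largest amplitude in both arms, 0.50 ± 0.10 with a peak at ZT 10.4 after dawn injection and 0.47 ± 0.09 with a peak at ZT 23.5 after dusk injection (adjusted p = 0.00556 and 0.00331, each lost without replicate 1 and without replicate 2). Each arm is compared with uninjected mice, so drug and injection cannot be told apart.

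In the tunicamycin arms the Tars wave was present at amplitudes of 0.59 ± 0.08 under night feeding, 0.30 ± 0.06 under arrhythmic feeding and 0.42 ± 0.05 with AZD8055 at dusk (limma, adjusted p = 0.000118, 0.0158 and 4.21e-05). The arrhythmic call was lost without replicate 1, 2 or 3. Background shares were 15% of genes, 7.52% and 21.2%. Cars2, mitochondrial cysteinyl-tRNA synthetase, had the largest amplitude with tunicamycin and AZD8055, 0.54 ± 0.09 with a peak at ZT 21.5 (adjusted p = 0.0011). In all 3 arms the highest Tars time mean fell at ZT 22 or ZT 4 and the lowest at ZT 10.

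Between arrhythmic and night feeding the daily mean of 17 of 37 members differed, where that of 5461 of 12413 genes did. The share of mitochondrial members that rose was near that of all genes. Against night feeding, 9 of 18 cytosolic members rose and 0 fell, both dual members rose, and 4 of 17 mitochondrial members rose while 2 fell, where 23.9% of all genes rose and 20.1% fell. The median log2 difference was 0.16 for cytosolic members, -0.01 for mitochondrial ones and 0.02 for all genes. Iars2, mitochondrial isoleucyl-tRNA synthetase, measured 23.6 to 42.4 RPM (median 30.7) in 18 night-fed libraries and 34.9 to 49.6 (median 44.5) in 18 arrhythmic ones. The ranges overlapped between 34.9 and 42.4 RPM. Its log2 difference was 0.52 ± 0.06 (SE, adjusted p = 1.41e-08 by limma), a 1.43-fold rise. Nars (asparaginyl) rose by 0.33 ± 0.05 on the log2 scale (adjusted p = 1.91e-06) and Tars by 0.36 ± 0.07 (adjusted p = 3.04e-05). Nars, Tars and Iars2 were the 3 of 17 called members whose calls held in every alternative, and the count fell to 11 without replicate 1 and to 6 without replicate 2.

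Farsa, Kars (lysyl) and Yars2 also rose under arrhythmic feeding, by 0.33, 0.23 and 0.42, each lost without replicate 2. Aars did not pass, at -0.04 ± 0.07 (limma, adjusted p = 0.674). Of 13 charging partners, 4 rose and 0 fell, with Gatc, a subunit of the mitochondrial glutamyl-tRNA(Gln) amidotransferase, at 0.69 ± 0.07 and Eprs at 0.35 ± 0.06. Of 16 tested amino acid response genes 6 rose and 3 fell. Atf5, a transcription factor made with the stress response, rose by 0.96 ± 0.14, and Ddit3, the stress factor CHOP, by 0.68 ± 0.11. Of 16 mitochondrial translation factors 5 rose and 3 fell, with Tufm, the mitochondrial elongation factor Tu, at -0.59 ± 0.08 and Gfm2 at 0.43 ± 0.05.

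With ad libitum feeding, against the same night-fed libraries, 5 cytosolic members were higher and 0 lower, and both dual members were higher. Of mitochondrial members 3 were higher and 2 lower, where 28.5% of genes rose and 24.5% fell. Farsa held 16.8 to 44.6 RPM (median 34.8) night-fed and 37.8 to 57.3 (median 47) ad libitum, overlapping ranges that differed by 0.51 ± 0.08 (limma, adjusted p = 2.33e-06). Iars2 stood at 38.5 to 57.8 RPM, 0.54 ± 0.06 above night feeding (adjusted p = 1.94e-09). Nars differed by 0.33 ± 0.05 (adjusted p = 8.54e-07), Dars (aspartyl) by 0.36 ± 0.06 (adjusted p = 5.38e-06) and Yars2 by 0.50 ± 0.09 (adjusted p = 9.34e-06). Sars2 fell by 0.42 on the log2 scale (adjusted p = 0.0012, lost without replicate 2). Of the 12 calls 7 held in every alternative, and 7 calls were left in number without replicate 2. Mitochondrially encoded transcripts took a median of 15% of reads in night-fed, 18.5% in arrhythmically fed and 20.2% in ad libitum livers. The part of that share in these results was not tested. Both feeding comparisons, and that of vehicle with no injection in wild type, subtract the same uninjected night-fed arm. Of the 13 arms without tunicamycin it had the lowest cytosolic mean, 4.558 against 4.634 in night-fed Albumin-Cre, and the lowest median depth. Nars, Farsa, Kars and Iars2 rose in each of these comparisons. Whether the schedule or a low level in that shared arm made the feeding differences was not tested.

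**Figure D3:**
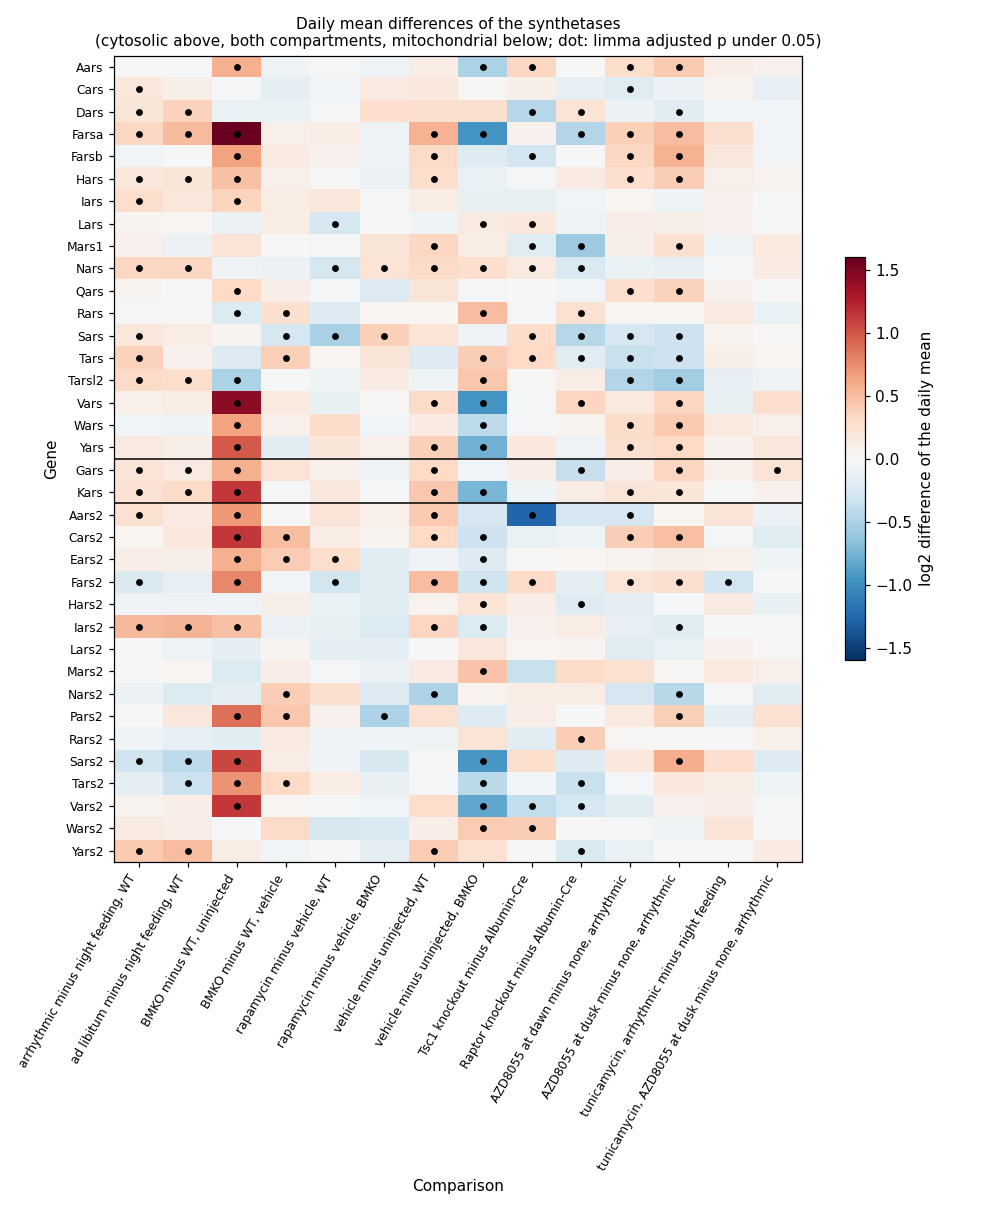
Log2 difference in daily mean of the members, all but 1 of them shown, in each comparison of 2 arms; colour gives the difference and a dot marks limma adjusted p under 0.05. Uninjected BMKO against wild type holds 22 calls and the strongest rises, with Farsa at 1.58, while each comparison within the tunicamycin arms holds 1.

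In uninjected livers, synthetases of both compartments were higher in whole-body Bmal1 knockouts than in wild type. Fewer members differed with vehicle, as given below. Whether genotype or another property of the uninjected arms made the difference was not tested. Of 18 cytosolic members 9 rose and 2 (Rars, arginyl, and Tarsl2, a threonyl paralog) fell, both dual members rose, and 9 of 17 mitochondrial members rose while 0 fell, where 34.3% of all genes rose and 37.4% fell. Medians were 0.26 for cytosolic, 0.47 for mitochondrial members and -0.06 for all genes. Farsa measured 16.8 to 44.6 RPM in wild type and 71.1 to 134 (median 98) in BMKO, with no overlap, a 2.99-fold difference (log2 1.58 ± 0.14, adjusted p = 1.07e-16 by limma). Vars, cytosolic valyl-tRNA synthetase, measured 3.18 to 5.95 against 7.24 to 34.6 RPM, again with no overlap, and rose 2.69-fold (log2 1.43 ± 0.11, adjusted p = 8.73e-20). Cars2 ran from 6.03 to 10.2 in wild type and from 11.4 to 22.5 in BMKO, a 2.20-fold rise with no overlap (log2 1.14 ± 0.08, adjusted p = 8.05e-22).

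Kars rose by 1.14 ± 0.09 on the log2 scale, from 17.3 to 31.7 RPM in wild type to 26.3 to 67.3 in BMKO, with ranges that met. Yars rose by 0.98 ± 0.11. Among mitochondrial enzymes, Vars2 rose by 1.13 ± 0.13, from 4.42 to 13.9 RPM (median 8.01) to 12.0 to 21.8 (median 17.1), ranges that met, and Sars2 by 1.06 ± 0.13. Smaller rises were those of Aars (0.57 ± 0.09), Gars (0.57 ± 0.09) and Iars2 (0.47 ± 0.08), all under an adjusted p of 0.05 in limma. Lars2, mitochondrial leucyl-tRNA synthetase, did not pass (-0.14 ± 0.11, adjusted p = 0.223). It was the member with no daily mean call in any of the 14 comparisons of the 13 arms. Calls held in every alternative for 20 of the 22 members.

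The same contrast moved much else. Of 6 cytosolic elongation factors 5 rose and 0 fell, with Eef2, which moves the ribosome along, at 1.45 ± 0.11 and Eif5a at 1.33 ± 0.09. Amino acid response genes rose in 7 and fell in 4 of 16, led by Atf5 at 3.21 ± 0.14 and Shmt2, a mitochondrial serine enzyme, at 1.15 ± 0.10. Aimp2, a scaffold of the multisynthetase complex, rose by 1.14 ± 0.11. Mitochondrial translation factors split, with 6 higher and 5 lower of 16: Mrps12 rose by 0.75 ± 0.10 and Mtif2, the mitochondrial initiation factor, fell by 0.95. Beside these, Kupffer cell markers rose in 2 and fell in 6 of 10 (median -0.68; summed level 134 to 437 RPM in wild type, 126 to 443 in BMKO), and endothelial markers rose in 2 and fell in 5 of 8 (median -0.67). Stellate markers rose in 2 and fell in 3 of 6. The 5 cholangiocyte markers had a summed level of 10.8 to 44.4 RPM (median 22.3) in wild type and 39.7 to 82.0 (median 59.7) in BMKO, and of the 2 tested 1 rose and 1 fell. Hepatocyte markers rose in 1 and fell in 3 of 7, with none at 0 in every library; their summed level was 59770 to 80190 RPM in wild type and 20160 to 41670 in BMKO, without overlap. Mitochondrially encoded reads had a median share of 7.86% in uninjected BMKO against 15% in wild type. The part of cell makeup or of that share in the result was not tested.

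**Figure D4:**
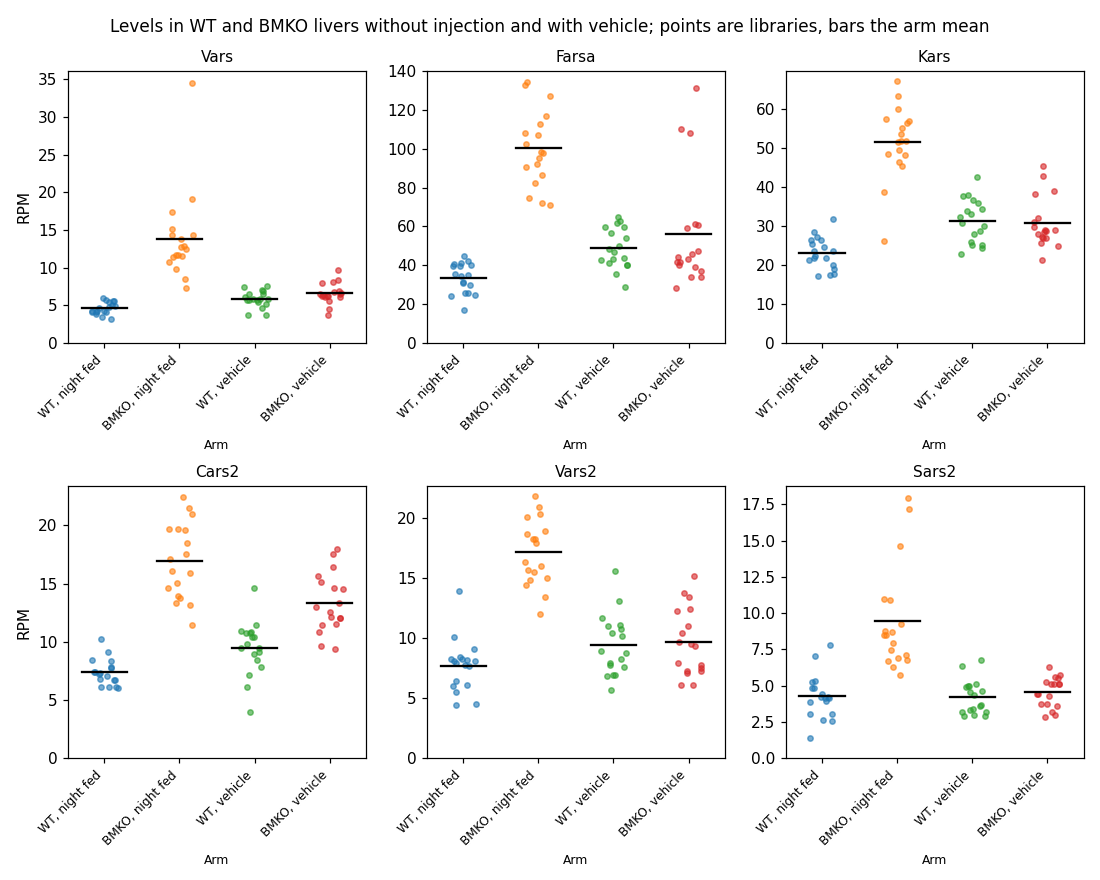
RPM of Vars, Farsa, Kars, Cars2, Vars2 and Sars2 in wild-type and BMKO liver, uninjected and with vehicle; points are libraries and bars arm means. For Farsa the 18 uninjected BMKO libraries lie between 71.1 and 134 RPM and the 18 uninjected wild-type libraries between 16.8 and 44.6, while the 18 vehicle BMKO libraries run from 28.5 to 131 with a median of 43.7.

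With vehicle, 9 members differed between the genotypes. Among cytosolic members 2 rose (Tars and Rars) and 1 fell (Sars), and 6 mitochondrial members rose and 0 fell, where 9.95% of genes rose and 11.8% fell. Cars2 held 3.98 to 14.6 RPM (median 9.63) in wild type with vehicle and 9.4 to 17.9 (median 12.8) in BMKO with vehicle, overlapping groups that differed by 0.49 ± 0.08 (limma, adjusted p = 7.55e-07). Ears2 differed by 0.41 ± 0.08 (adjusted p = 2.26e-05). These were the 2 of 9 calls that held in every alternative; 4 calls were left without replicate 2, 5 without replicate 3 and 2 with arm and replicate number as a random block. Farsa was among the members that did not pass, at 28.5 to 131 RPM with vehicle in BMKO. Its 3 highest libraries there were replicate 1 of ZT 14, 18 and 22, at 131.3, 108.1 and 110.4 RPM, against 37.17 to 61.26 RPM in replicates 2 and 3 at those times.

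The genotype difference itself changed between uninjected and vehicle mice for 23 of 37 members, lower for 17 and higher for 6, against 28.4% of genes lower and 28.7% higher. Farsa changed by -1.50 ± 0.20 (limma, adjusted p = 1.48e-09), Vars by -1.27 ± 0.16, Kars by -1.17 ± 0.13 and Yars by -1.15 ± 0.15. Vars2 (-1.10 ± 0.19), Fars2 (-0.82 ± 0.15) and Cars2 (-0.64 ± 0.11) led the mitochondrial members. Of the 23 calls 10 held in every alternative, and 12 were left without replicate 2 and 12 with the random block.

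From its 2 sides, this contrast was a rise in wild type and a mixed change in BMKO. In wild type, vehicle against no injection raised 7 cytosolic, 2 dual and 5 mitochondrial members and lowered 1 (Nars2), where 15.4% of genes rose and 11.9% fell. Kars went from a median of 22.9 to 31.6 RPM, with overlapping ranges (0.43 ± 0.09, limma adjusted p = 0.000118). Nars rose by 0.31 ± 0.07 and Fars2 by 0.49 ± 0.11, and these 3 of the 15 calls held in every alternative, with 9 calls left without replicate 1, 5 without replicate 2 and 3 with the random block. In BMKO, vehicle raised 5 and lowered 5 cytosolic members, lowered Kars, and raised 4 and lowered 7 mitochondrial members, where 31.3% of genes rose and 29.1% fell. Vars fell by 0.96 on the log2 scale, Farsa by 0.95, Sars2 by 0.93 and Vars2 by 0.83, each with adjusted p in limma of 1.04e-07 or less. Vars held 7.24 to 34.6 RPM uninjected and 3.75 to 9.65 with vehicle, ranges that met. The mitochondrially encoded share was 7.86% uninjected and 14.2% with vehicle. Kupffer markers rose in 5 and fell in 2 of 10, endothelial markers rose in 6 and fell in 1 of 8, and both neutrophil markers rose. Calls in BMKO numbered 14 without replicate 2, without replicate 3 and with the random block. The part of these shares and markers, and of the low cytosolic mean of the uninjected wild-type arm, was not tested.

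Rapamycin changed 5 of 37 members in wild type and 3 in BMKO, where 2300 and 1476 of 12413 genes changed. Sars fell in wild type and rose in BMKO. In wild type 0 cytosolic members rose and 3 fell (Sars, Nars and Lars, leucyl), and 1 mitochondrial member rose and 1 fell, where 9.8% of genes rose and 8.72% fell. Sars, cytosolic seryl-tRNA synthetase, measured 37.8 to 78.4 RPM (median 49.5) with vehicle and 26.2 to 50.4 (median 36.3) with rapamycin, overlapping ranges that differed by -0.52 ± 0.09 (limma, adjusted p = 1.75e-05). In BMKO it measured 31.3 to 52.3 (median 43.1) with vehicle and 41.1 to 85.9 (median 55.4) with rapamycin, a rise of 0.38 ± 0.09 (adjusted p = 0.00221, lost without replicate 1 and with the random block). The difference between those responses was 0.90 ± 0.13 (adjusted p = 8.34e-06), and it held in every alternative.

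Nars showed the same pair of directions, -0.28 ± 0.07 in wild type and 0.21 ± 0.07 in BMKO, with a difference of 0.49 ± 0.10 (limma, adjusted p = 0.00108) that was lost without replicate 1 and with the random block. For Lars the difference was 0.27 ± 0.10 (adjusted p = 0.043) and for Ears2 -0.45 ± 0.11 (adjusted p = 0.00369), both lost without replicate 1 and with the random block. Of the 4 calls 1 was left under either. Without replicate 1 the differences were 0.552 for Sars, 0.164 for Nars and -0.214 for Ears2. In all, 3 members differed upward and 1 downward, where 7.83% of genes differed upward and 6.42% downward. In BMKO rapamycin raised Sars and Nars and lowered Pars2 (mitochondrial prolyl, 0.855 to 2.49 RPM with vehicle and 0.39 to 1.73 with rapamycin, lost without replicate 2 or without replicate 3), where 6.32% of genes rose and 5.57% fell. Aars, Gars, Kars and Lars2 did not pass in either genotype. Without replicate 2, 3 calls were left in wild type, and in BMKO 1 without replicate 1 and 1 without replicate 3. With the random block 1 was left in wild type and 0 in BMKO. Ddit4, an inhibitor of mTORC1 on the amino acid response list, fell by 1.597 on the log2 scale in wild type with rapamycin, where 2 of 16 listed genes rose and 2 fell. Endothelial markers fell in 5 of 8 and rose in 0 in that contrast (median -0.33), both neutrophil markers fell, and their part was not tested.

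The liver knockouts of Tsc1 and Raptor share the Albumin-Cre controls, so their values are set side by side. Loss of Tsc1 raised 5 cytosolic members (Aars, Lars, Nars, Sars and Tars), lowered 3 (Dars, Farsb and Mars1, methionyl), raised 3 mitochondrial members and lowered 2, where 18.6% of genes rose and 18% fell. Loss of Raptor raised 3 cytosolic members (Dars, Rars and Vars), lowered 5 (Farsa, Mars1, Nars, Sars and Tars) and Gars, raised 1 mitochondrial member and lowered 5, where 19.6% of genes rose and 22.7% fell. Of the 11 members often listed as ATF4 targets, 5 rose and 1 fell without Tsc1, and 0 rose and 5 fell without Raptor.

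Aars2, mitochondrial alanyl-tRNA synthetase, showed the largest change in the Tsc1 knockout. It measured 4.33 to 7.18 RPM (median 5.55) in Albumin-Cre and 0.658 to 5.08 (median 1.81) without Tsc1, and 3 knockout libraries fell inside the control range. The difference was -1.27 ± 0.14 (limma, adjusted p = 1.16e-09), which left 0.414 of the control level, and it held in every alternative. Aars2 lies at chr17:45506841-45520843 on the plus strand of GRCm38.p6. In the Raptor knockout it held 2.47 to 6.76 RPM and did not pass. Vars2 also fell without Tsc1, by 0.40 on the log2 scale (adjusted p = 0.00129).

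Among cytosolic members without Tsc1, Dars fell from a median of 27.9 to 20.7 RPM (-0.46 ± 0.07, limma adjusted p = 1.34e-06) and Aars rose from 92.8 to 115 (0.33 ± 0.05, adjusted p = 5.79e-06), all with overlapping ranges. Tars rose by 0.32 ± 0.07 and Farsb, the other subunit of cytosolic phenylalanyl-tRNA synthetase, fell by 0.31. These calls held in every alternative, as did 7 of 13 in all, and 8 remained in number without replicate 2. The amino acid response list rose in 8 and fell in 2 of 16, with Asns, asparagine synthetase, at 3.15 ± 0.31, Ddit4 at 2.30 ± 0.12 and Eif4ebp1, a translation inhibitor under mTORC1, at 0.89 ± 0.06. Of 6 cytosolic elongation factors 1 rose and 3 fell, with Eef2 at -0.40 ± 0.06.

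Without Raptor, Mars1 fell from 31.6 to 52.6 RPM (median 41.3) to 17.1 to 36.1 (median 29.2), overlapping between 31.6 and 36.1 RPM (-0.58 ± 0.07, limma adjusted p = 3.94e-09). Gars fell by 0.37 (adjusted p = 2.04e-07), Sars by 0.46 (adjusted p = 6.37e-07) and Nars by 0.24 (adjusted p = 9.34e-06). For the same genes without Tsc1 the differences were -0.19 for Mars1, 0.11 for Gars (adjusted p = 0.0938), 0.29 for Sars and 0.15 for Nars, the last 2 named after their values were seen. Rars2, mitochondrial arginyl-tRNA synthetase, rose by 0.40 ± 0.09 without Raptor and Tars2, its threonyl counterpart, fell by 0.35. Of the 15 calls 7 held in every alternative, and 8 were left without replicate 3. Sepsecs, which finishes selenocysteine on its tRNA, rose by 0.73 ± 0.13. The amino acid response list rose in 2 and fell in 5 of 16. Mitochondrially encoded reads had a median share of 26.3% without Raptor, 18.3% without Tsc1 and 17.2% in Albumin-Cre, and the part of that share was not tested.

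**Figure D5:**
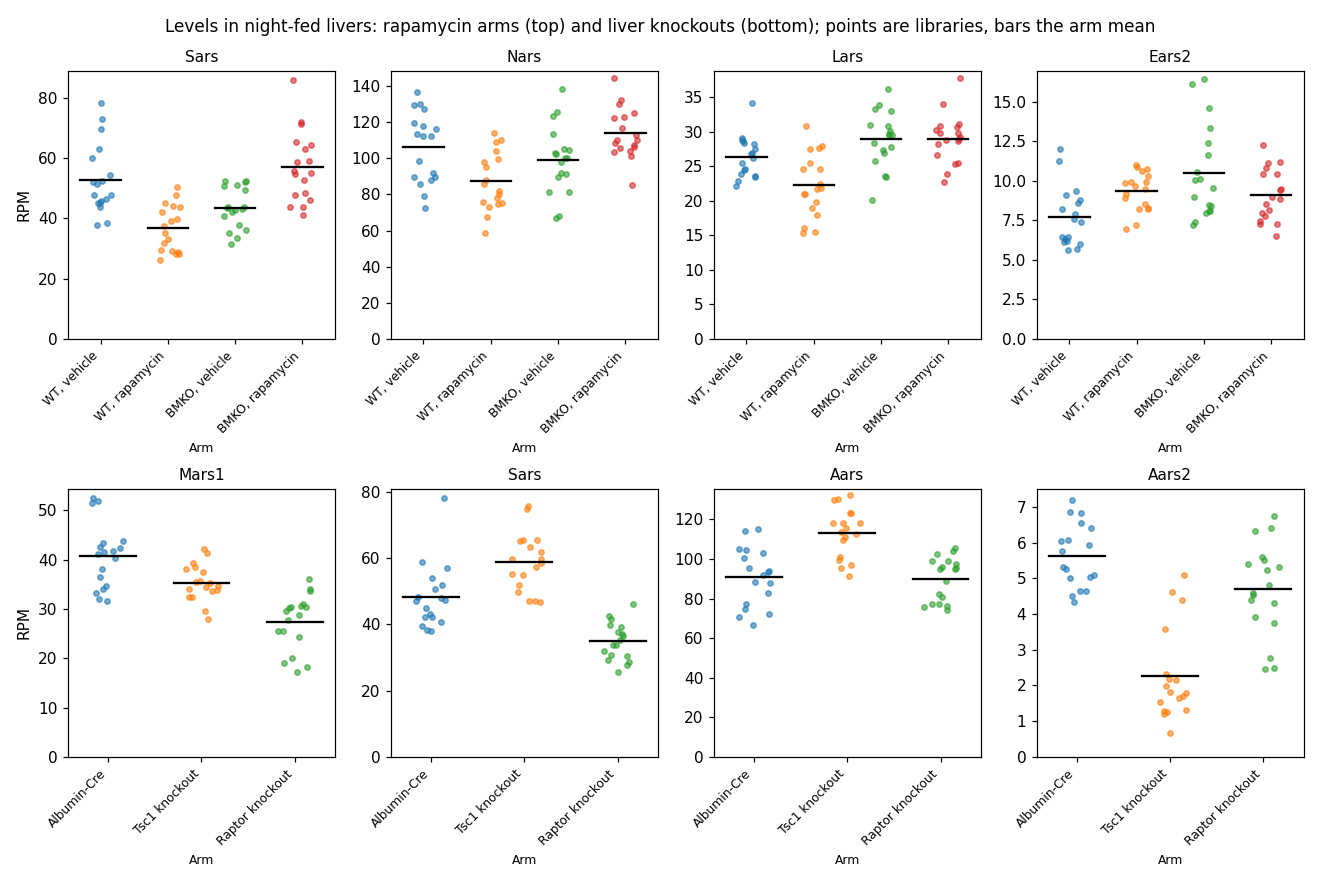
RPM of Sars, Nars, Lars and Ears2 in the vehicle and rapamycin arms (top) and of Mars1, Sars, Aars and Aars2 in Albumin-Cre and the liver knockouts (bottom); points are libraries and bars arm means. Aars2 shows 18 Tsc1 knockout libraries from 0.658 to 5.08 RPM against 4.33 to 7.18 in Albumin-Cre, and Sars sits lower with Raptor loss (25.6 to 46.0) than in Albumin-Cre (37.9 to 78.3).

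AZD8055 raised more cytosolic members than it lowered, with Tars and Sars among the lowered ones. Dawn injection raised 7 and lowered 4 of 18 cytosolic members, raised Kars, and raised 2 and lowered 2 of 17 mitochondrial members, where 21% of genes rose and 20% fell. Dusk injection raised 9 and lowered 4, raised both dual members, and raised 4 and lowered 3 mitochondrial members, where 27% of genes rose and 23.8% fell. The comparisons share the uninjected arrhythmically fed arm, and no vehicle was given on that schedule, so drug and injection cannot be told apart.

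Aars measured 75.5 to 121 RPM (median 95) without drug, 93.8 to 138 (median 120) after dawn and 102 to 161 (median 124) after dusk injection, with overlapping ranges. It rose by 0.28 ± 0.06 (limma, adjusted p = 0.000358) and 0.41 ± 0.06 (adjusted p = 6.56e-07). Qars, glutaminyl-tRNA synthetase, rose by 0.27 ± 0.06 and 0.37 ± 0.06, and Cars2 by 0.39 ± 0.09 and 0.48 ± 0.09. Tarsl2 fell at both times, by 0.46 and 0.56 on the log2 scale (adjusted p = 0.000145 and 5.63e-06). Farsb rose by 0.56 ± 0.09 and Sars2 by 0.58 ± 0.11 after dusk injection. Tars fell by 0.35 and 0.33 and Sars by 0.27 and 0.33, genes named here after their values were seen. Of these comparisons, 5 of 16 dawn calls and 12 of 22 dusk calls held in every alternative. Without replicate 1, 7 dawn and 12 dusk calls were left, and without replicate 3, 10 dawn calls.

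Around these members, the amino acid response list rose in 6 and fell in 2 of 16 after dawn injection and rose in 7 and fell in 1 after dusk injection, with Slc3a2, the heavy chain of amino acid transporters, at 0.41 ± 0.07 and 0.47 ± 0.07. Trnt1, which adds the CCA end to tRNAs, fell by 0.46 and 0.73, and Mtfmt, the mitochondrial formylase of initiator tRNA, rose by 0.34 ± 0.08 and 0.42 ± 0.08. Of 13 charging partners 2 rose and 5 fell at each time. Both neutrophil markers tested rose in both arms (median 1.32 and 1.11), and Kupffer markers rose in 3 and 5 of 10. The mitochondrially encoded share was 12.7% and 11.9% against 18.5% without drug. Their part in the result was not tested.

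Within the tunicamycin arms 1 member passed in each comparison. Arrhythmic against night feeding lowered Fars2 alone, by 0.31 on the log2 scale (limma, adjusted p = 0.0117, lost without replicate 1, 3 or 4), and raised 0, where 0.245% of genes rose and 0.31% fell. Fars2 held 13.7 to 24.1 RPM night-fed and 10.9 to 20.3 arrhythmically fed, overlapping groups. AZD8055 at dusk raised Gars alone, by 0.22 ± 0.07 (adjusted p = 0.0306, lost without replicate 2, 3 or 4), and lowered 0, where 4.19% of genes rose and 4.66% fell. At an unadjusted p under 0.05, 4 members differed in each comparison, where 12.9% and 22.5% of all genes did, and edgeR's quasi-likelihood test called 1 in each. Aars differed by 0.11 ± 0.06 and 0.06 ± 0.06, Iars2 by 0.01 ± 0.06 and 0.02 ± 0.06.

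Beside the arms without the drug, livers given tunicamycin had higher levels of most cytosolic synthetases. The shared times are ZT 10 and 22, with 8 tunicamycin libraries and 6 others in each pair of arms. The tables were deposited apart and rescaled apart, so this is a description with no test. Cytosolic members stood at least 1.5-fold higher in 12, 11 and 10 of 18 under night feeding, arrhythmic feeding and arrhythmic feeding with AZD8055, and 0 stood 1.5-fold lower. Mitochondrial members stood 1.5-fold higher in 2, 2 and 3 of 17 and 1.5-fold lower in 1, 1 and 0. Over all genes 19.2%, 18.5% and 18% stood 1.5-fold higher, and 1629, 1568 and 1777 of 11908 stood 1.5-fold lower. Under arrhythmic feeding Tarsl2, named after its value was seen, measured 4.69 to 6.92 RPM with tunicamycin and 8.34 to 10.9 without, with no overlap. Median log2 differences were 0.79, 0.62 and 0.66 for cytosolic members, -0.05, 0.02 and -0.06 for mitochondrial ones, and 0.00, -0.01 and -0.06 for all genes.

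Wars showed the largest difference of the members. Under night feeding at the shared times it measured 14.7 to 27.5 RPM (median 19.4) with tunicamycin and 2.81 to 8.05 (median 5.41) without, 3.62-fold from the means of log2(RPM + 0.5), with no overlap. The other 2 pairs gave 3.86-fold and 3.29-fold, also without overlap. Nars measured 174 to 286 RPM against 73.5 to 90.5 under night feeding, a 2.65-fold difference with no overlap, and Iars (isoleucyl) 27.6 to 37.8 against 9.30 to 20.8, a 2.56-fold difference. Rars stood 2.44-fold, 2.57-fold and 2.64-fold higher in the 3 pairs. Sars stood 1.90-fold, 1.86-fold and 2.49-fold higher, and Gars 1.71-fold, 1.67-fold and 1.62-fold higher.

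Among mitochondrial members, Cars2 measured 14.9 to 29.6 RPM with tunicamycin against 6.07 to 10.2 without under night feeding, 2.55-fold with no overlap, and stood 2.32-fold and 1.63-fold higher in the other pairs. Ears2 stood 2.06-fold, 1.58-fold and 1.63-fold higher, and Wars2 passed 1.5-fold in 1 pair, at 1.53-fold with AZD8055. Of the cytosolic members, Mars1 was the one at the low end under night feeding, with a log2 difference of -0.28. These members were chosen after their values were seen. Members often listed as ATF4 targets stood 1.5-fold higher in 9, 9 and 8 of 11, and amino acid response genes in 13, 14 and 13 of 16. Cytosolic elongation factors did so in 1, 0 and 0 of 6, and mitochondrial translation factors in 3, 2 and 2 of 16. Among cell type markers, in the same order of pairs, Kupffer markers stood 1.5-fold higher in 2, 2 and 1 of 10 and lower in 0. Endothelial markers stood higher in 0, 1 and 0 of 8 and lower in 1, 0 and 0, and stellate markers higher in 0, 1 and 0 of 6 and lower in 2, 1 and 2 (medians -0.32, -0.38 and -0.27). Both neutrophil markers stood higher in the pair with AZD8055 (median 1.10) and neither did in the others. Hepatocyte markers stood higher in 2, 2 and 1 of 7 and lower in 1, 2 and 1. The part of these markers in the result was not tested. Library table, and any difference in animals or preparation between the tables, cannot be told apart from tunicamycin here.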

How the data were processed

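The 2 deposited tables hold a normalized signal per gene symbol, and how the authors made it is not given in the sources used here. Per the submitters' processing notes, STAR 2.7.3a, SAMtools and mm10/GRCm38.p6 were used. Each column is whole reads divided by a factor: 99.9% and 100% of values above 0 were whole within 0.01 read. In the Raptor arm 197 genes lay off the step, so fits that include it omit them. Recovered reads were rescaled to RPM.

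Daily means, 24 h rhythms (joint test of cosine and sine) and their differences were tested with limma 3.58.1 (R 4.3.3, trend) on log2(RPM after TMM scaling + 0.5), over 12413 genes of mean 1 RPM or more (12267 with the Raptor arm, 12261 under tunicamycin), with Benjamini-Hochberg adjustment over all genes at 0.05. Fold changes are on that scale. edgeR 4.0.16 on the recovered reads called 8917 genes in the uninjected BMKO comparison and 5343 in the arrhythmic one; DESeq2 1.42.0 gave size factors only. The code was tested on simulated data.

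The members and lists were chosen with earlier results of these data known. Values are given, per comparison, for up to 4 cytosolic or dual and 3 mitochondrial members of smallest adjusted p, up to 3 rhythmic members of largest amplitude per arm, Aars, Gars, Kars, Lars2 and Iars2 anywhere, and up to 4 genes per related list. Of the members, 1 counted among the 37 is not reported here by name. No 2 libraries were alike enough to be 1 library deposited more than once (highest correlation 0.988). The annotated 5′ starts of Hars and Hars2 overlap on opposite strands, and whether the counting used strand is not stated.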

Additional observations from a re-analysis of the deposited data

Results flagged for a closer look

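Tars in arrhythmically fed mice given tunicamycin at ZT 4 measured 143.4 RPM in replicate 4, against 206.6 to 218.8 in the other 3 replicates. The gap took up 0.838 of the group's range, above the 95% critical value of Dixon's test. Tars and both class levels were looked at in 36 groups of 4 in all, and chance flags about 1 in 20.

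The response to rapamycin differed between BMKO and wild type for 4 members, by limma's interaction term. It was 0.905 for Sars (adjusted p = 8.34e-06), 0.495 for Nars (adjusted p = 0.00108), 0.272 for Lars (adjusted p = 0.043) and -0.45 for Ears2 (adjusted p = 0.00369), BMKO minus wild type on the log2 scale. Of these, Sars held in every alternative run.

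The difference between BMKO and wild type changed between uninjected and vehicle-injected mice for 23 of 37 members, by the same kind of term, where that of 7093 of 12413 genes changed. It was higher for 6 members and lower for 17, against 28.7% of genes higher and 28.4% lower. Replicate 1 of vehicle-injected BMKO at ZT 14 and ZT 22 lay 2.14 and 2.02 times the median distance of their table from the other libraries of their groups. Without libraries at least 2 times that distance away, 24 members changed.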

How the results depend on the processing

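Of the daily mean differences named by the rule above, none that passed in the main or the alternative run reversed its direction. Changes of sign where neither run passed were not counted. Counts of members that moved by over 1.5 times are given here, and the cause was not tested beyond what each setting leaves out.

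With arm-and-replicate number as a random block, daily mean calls went from 17 to 11 (arrhythmic feeding), 9 to 2 (BMKO, vehicle), 5 to 1 and 3 to 0 (rapamycin, wild type and BMKO), 15 to 3 and 22 to 14 (vehicle, wild type and BMKO), 4 to 1 (rapamycin response), 23 to 12 (genotype difference) and 1 to 0 (AZD8055 with tunicamycin), and rhythm differences from 0 to 2 (ad libitum) and 2 to 4 (AZD8055 at dusk). Same-numbered libraries had median correlations of -0.018 to 0.0534 between arms and of 0.0776 to 0.256 within an arm, over the fits. Numbers were therefore not treated as pairs between arms. Single arms differed, and within arrhythmically fed wild type the median was -0.00572. Within vehicle BMKO the median was 0.514 for libraries of the same number and -0.402 for the rest. The main fits take those libraries as independent. With a fixed replicate block, rhythmic members went from 4 to 8 in uninjected and 2 to 5 in ad libitum wild type and from 2 to 8 in vehicle BMKO, and no other count moved by over 1.5 times.

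Without the filter, rhythm differences fell from 2 to 1 (arrhythmic feeding, BMKO) and rhythmic members from 5 to 3 (vehicle wild type) and 2 to 1 (ad libitum); edgeR gave 1 rhythm difference for arrhythmic feeding and 1 for BMKO. Without the 3 shallowest libraries, rapamycin in BMKO gave 5 calls, BMKO 1 rhythm difference and uninjected BMKO 4 rhythmic members. Added after the data were seen: without 2 ad libitum libraries, arrhythmic feeding gave 1 rhythm difference and ad libitum 5 rhythmic members; without 2 dusk AZD8055 libraries, dusk gave 4 rhythm differences; without libraries far from their group, BMKO gave 1 rhythm difference, AZD8055 with tunicamycin 3 calls and night-fed tunicamycin 7 rhythmic members.

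Leaving out each replicate number in turn gave these ranges of daily mean calls: 6 to 12 for arrhythmic and 7 to 12 for ad libitum feeding, 22 to 23 for BMKO, 4 to 10 for BMKO with vehicle, 3 to 4 and 1 to 2 for rapamycin in wild type and BMKO, 5 to 17 and 14 to 25 for vehicle, 1 to 4 for the rapamycin response, 12 to 22 for the genotype difference, 8 to 11 for Tsc1, 8 to 12 for Raptor, 7 to 15 and 12 to 19 for AZD8055 at dawn and dusk, and 0 to 1 in both tunicamycin comparisons. Rhythm differences ranged from 0 to 2 for arrhythmic feeding, 0 to 1 for BMKO, 0 to 3 for dawn and 0 to 0 for dusk AZD8055. Rhythmic members numbered 1 to 3 in uninjected, 0 to 1 in vehicle and 1 to 1 in rapamycin wild type, 0 in uninjected and rapamycin BMKO, 0 to 5 in vehicle BMKO, 0 to 1 arrhythmic, 1 to 2 ad libitum, 1 to 3 and 0 to 2 with AZD8055 at dawn and dusk, 2 to 4 in Albumin-Cre, 1 to 3 without Tsc1, 1 to 4 without Raptor, and 1 to 5, 0 to 1 and 2 to 6 in the tunicamycin arms.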
